A study of Mus musculus with 4 samples.

Results

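Mouse chromosome 8 was profiled by array comparative genomic hybridisation as 2810 probe positions out of 54677 on the array. The positions are all non-control probes that the array design places on chromosome 8 of mouse build mm9, 2829 in number, less 19 probes in defensin genes. Defensin genes lie in tandem copies whose number is known to vary between mouse strains, and they were left out for the whole profile. The 19 probes had a median log2 ratio of 0.28, 0.33, 0.29 and 0.45 on the 4 arrays. The remaining probes run from chr8:3151837 to chr8:131699795, a span of 128.5 Mb, with a median spacing of 16.2 kb against 18.3 kb on the other autosomes. The longest stretch without a probe is 3.15 Mb, at chr8:19470473-22623249.

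All 4 samples were genomic DNA of liver cells with the genotype TAK1LPC-KO_RIP3-_-, extracted from sections of formalin-fixed, paraffin-embedded tissue, and they form 1 group. The series title speaks of TAK1-deficient liver parenchymal cells with a Rip3 double knockout, and the promoter that drives the deletion was not given in the sources used here. Of each DNA, 250 ng was labelled with Cy5 and set against a Cy3-labelled pool of 4 normal livers, the only control. The ratio was therefore tested against 0, which leaves out how much normal livers differ among themselves, and no dyes were swapped. The labels do not say whether the samples came from separate animals, so a p-value here reflects the variation among the 4 arrays alone, possibly of technical origin. Replicates 1 and 2 shared 1 slide and replicates 3 and 4 another. DNA gives no expression markers, so the labelled cell type could not be checked here.

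Array comparative genomic hybridisation reads the amount of a genomic segment as the ratio of test to reference fluorescence on a probe. A gain or loss of a whole chromosome or arm moves all probes along it, and liver tumours are known for such broad changes as well as for focal ones. Mouse chromosome 8 carries clusters of liver-expressed genes, among them coagulation factors, carboxylesterases and the metallothioneins, and also regulators of cell death such as Mlkl, the effector of necroptosis that acts downstream of RIP3. A ratio of tissue DNA is an average over all cells of the section, so a change in few cells and a small change in many cells cannot be told apart.

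The sequences below are those of probes that decide the value of a gene described further on. They show how unequal neighbouring probes of 1 gene could be. Each is printed as the scanner file gives it, with G and C in capitals and A and T in lower case, and positions are on mm9. The strand was not given in the sources used here. The first set is the 3 probes of Phkb, whose gene product is a regulatory subunit of phosphorylase kinase in glycogen breakdown.
Phkb probe at chr8:88457802-88457861: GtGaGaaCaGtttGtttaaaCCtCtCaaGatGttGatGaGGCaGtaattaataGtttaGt
Phkb probe at chr8:88560080-88560139: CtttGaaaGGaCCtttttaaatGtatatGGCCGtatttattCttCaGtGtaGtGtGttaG
Phkb probe at chr8:88575081-88575140: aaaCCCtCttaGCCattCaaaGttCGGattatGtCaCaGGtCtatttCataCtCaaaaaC
The middle Phkb probe had log2 ratios of 2.93, 2.68, 3.05 and 2.98 on the 4 arrays, the highest mean of all chromosome 8 probes at 2.91. Those on either side averaged 0.29 ± 0.18 and 0.20 ± 0.22 (SD, n = 4 arrays). All 3 have a GC content between 33.3% and 36.7%. In the pool, the middle probe was well above background on 3 of the 4 arrays.

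F10, the coagulation factor that cuts prothrombin, is measured by 2 probes, and Tat, the first enzyme of tyrosine breakdown in liver, by 1.
F10 probe at chr8:13039562-13039621: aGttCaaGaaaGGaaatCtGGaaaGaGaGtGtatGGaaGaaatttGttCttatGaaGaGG
F10 probe at chr8:13046898-13046957: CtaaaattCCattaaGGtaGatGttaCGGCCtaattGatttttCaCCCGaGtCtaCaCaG
Tat probe at chr8:112523262-112523321: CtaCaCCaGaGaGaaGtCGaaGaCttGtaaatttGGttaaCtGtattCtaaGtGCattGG
The first F10 probe had log2 ratios of 2.45, 2.43, 2.04 and 2.09, and the second averaged -0.04 ± 0.18. The 2 probes did not overlap on any array.

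Ces1g, a carboxylesterase of liver that hydrolyses lipid esters, has 4 probes, all above 0 on every array.
Ces1g probe at chr8:95829500-95829559: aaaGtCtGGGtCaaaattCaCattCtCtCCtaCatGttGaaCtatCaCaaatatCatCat
Ces1g probe at chr8:95846838-95846892: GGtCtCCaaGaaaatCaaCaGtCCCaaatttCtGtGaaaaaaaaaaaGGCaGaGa
Ces1g probe at chr8:95851608-95851667: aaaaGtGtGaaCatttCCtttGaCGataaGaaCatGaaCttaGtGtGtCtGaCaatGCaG
Ces1g probe at chr8:95857516-95857571: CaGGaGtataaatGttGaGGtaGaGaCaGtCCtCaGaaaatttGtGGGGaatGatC
In the order printed, their log2 ratios averaged 0.40 ± 0.14, 1.51 ± 0.26, 1.06 ± 0.19 and 0.35 ± 0.06. The highest of them was well above background in the pool on 2 of the 4 arrays. B3gnt3, a glycosyltransferase gene, holds 1 of the lowest probes beside 1 near 0.
B3gnt3 probe at chr8:74215771-74215830: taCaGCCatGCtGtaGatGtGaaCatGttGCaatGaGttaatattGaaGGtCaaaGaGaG
B3gnt3 probe at chr8:74223580-74223639: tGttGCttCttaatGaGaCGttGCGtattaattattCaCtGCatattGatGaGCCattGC
The second B3gnt3 probe had log2 ratios of -1.80, -2.17, -2.14 and -2.45 and the first averaged 0.10 ± 0.05. These 5 genes were chosen after their values were seen.

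Chromosome 8 as a whole lay above the pool. Its median log2 ratio was 0.15 and 0.15 on slide 1 and 0.17 and 0.17 on slide 2, with the autosomal median of every array set to 0. The mean was 0.16 ± 0.01 (SD, n = 4), which as a linear ratio is 1.12, or 11.8% above the pool. All 4 arrays were close together and far from 0 relative to their spread (limma's adjusted p = 6.58e-08). An exact permutation test over the signs of 4 arrays gives a two-sided p of 0.125, the smallest it allows. For scale, 1 added copy in every diploid cell would give 0.58 by arithmetic, of which 0.16 is 27.4% on the log2 scale. How far the processed signals compress a ratio was not tested.

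Of the 19 autosomal medians, 31.6% passed the threshold above the pool, and chromosome 8 was among them as the second highest. Chromosomes 1, 2, 3, 10, 11, 12, 15, 17, 18 and 19 passed it below the pool. Only chromosomes 5, 6 and 9 passed it in neither direction, so passing this test did not by itself set chromosome 8 apart. Chromosome 13 was higher at 0.18 ± 0.04, and chromosomes 14 and 4 came next at 0.11 ± 0.01 and 0.09 ± 0.02. Chromosome 8 lay above 17 of the 18 other autosomes (limma, adjusted p at most 1.30e-04), and the difference was above 0 on all 4 arrays for each of these. Against chromosome 14 the difference was 0.04, 0.03, 0.07 and 0.04. Against chromosome 4 it was 0.07, 0.08, 0.07 and 0.06.

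The order of chromosomes 8 and 13 was not settled. Their difference was 0.01 and 0.01 on slide 1 and -0.04 and -0.04 on slide 2, so the slides did not overlap (mean -0.02 ± 0.03, limma's adjusted p = 0.119). Without replicate 1 or replicate 2 the difference passed the threshold, at -0.02 and -0.03 (adjusted p = 0.0439 and 0.0232), and over probes well above background on all arrays it was -0.03 (adjusted p = 0.033). Chromosome 8 itself was 0.02 higher on slide 2 than on slide 1 (limma's adjusted p = 0.0201). Slide differences were not particular to it, as chromosomes 1, 4, 6, 7, 11, 12, 13, 17 and 18 also passed the threshold. These ran from -0.04 on chromosome 12 to 0.06 on chromosome 13. Each slide held 2 arrays, and in this comparison limma gave every autosome the same standard error, 0.0063. That error was pooled over autosomal medians of the same arrays, which are not independent, so the slide p-values may be too small. The chromosome 8 difference missed the threshold without replicate 1, 2 or 3 (adjusted p = 0.115, 0.144 and 0.0632), and slide and sample cannot be told apart.

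**Figure D1:**
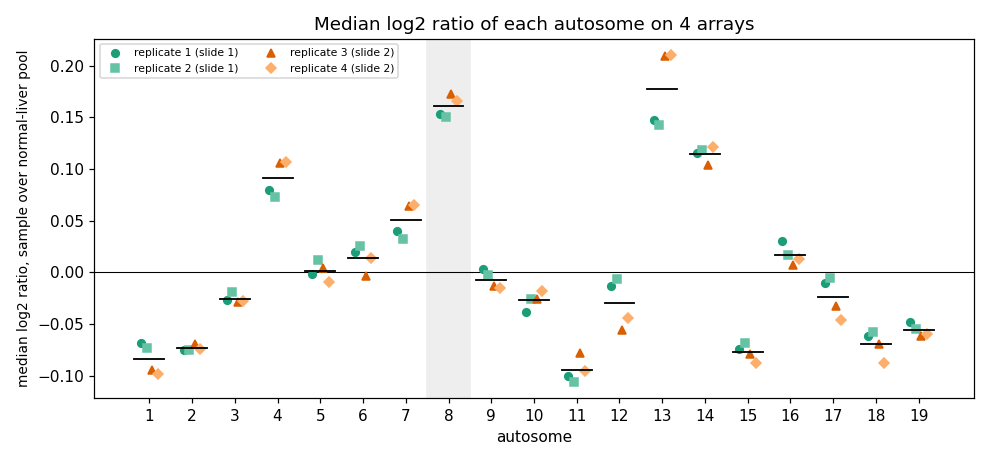
Median log2 ratio of sample over normal-liver pool (y) for each of the 19 autosomes (x), 1 marker per array and a black line at the mean of the 4 arrays. Chromosome 8, on the grey band, had medians from 0.15 to 0.17, and on slide 2 only chromosome 13 was higher.

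The shift was broad rather than the work of a few probes. On the 4 arrays 62.7%, 62.9%, 66.7% and 65.4% of chromosome 8 probes were above 0, against 49.0% to 49.3% of the other autosomal probes. Above 0 on all 4 arrays were 1152 of the 2810 probes, or 41%, where the share over all autosomal probes is 26.5%. Below 0 on all 4 arrays were 441, or 15.7%, against 26.7% over all autosomal probes. Single probes varied far more than the chromosome did. The mean ratio of a probe had an SD of 0.42 across chromosome 8 and 0.40 across the other autosomes, while the median SD of 1 probe between arrays was 0.20 in both. Any pair of arrays correlated at 0.63 to 0.74 across the 2810 probes, which share the pool, the probe sequences and the dye orientation.

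Probes far above the pool were a small part of the profile. A mean log2 ratio of at least 1 was found at 52 chromosome 8 probes, or 1.85%, against 0.678% of the other autosomal probes. A mean of -1 or less was found at 16, or 0.569%, against 0.936%. Neighbouring probes of chromosome 8 correlated at 0.14 in their mean ratio, within the range of 0.02 to 0.34 over the other 18 autosomes.

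Along the chromosome, each of 14 windows of 10 Mb had a mean of its 4 array medians above 0. The highest was the distal end past 130 Mb, with 36 probes, at 0.35, 0.36, 0.48 and 0.38. Next was chr8:60000001-70000000, with 129 probes, at 0.31, 0.26, 0.30 and 0.28. These windows did not overlap on any array.

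The lowest windows were chr8:120000001-130000000 at 0.02, 0.03, 0.05 and 0.05, the first 10 Mb at 0.06, 0.06, 0.07 and 0.08, and chr8:70000001-80000000 at -0.01, 0.07, 0.11 and 0.10. Replicate 1 in the last of these was the only window median below 0. The other windows averaged between 0.11 and 0.25. Probe density differed between windows. A probe had a median of 53.5 probes within 0.5 Mb on either side in chr8:70000001-80000000, and of 20 in chr8:60000001-70000000. It was 57 in chr8:100000001-110000000, at 0.11, and 41 both in chr8:120000001-130000000 and in chr8:20000001-30000000, the second of these at 0.23. The part of probe density in these differences was not tested.

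In finer steps, 126 bins of 1 Mb held probes, and 109 of them held at least 5 and were tested. A bin was called at an adjusted p under 0.05 and a mean log2 ratio at least 0.1 from 0. Called higher were 78 of the 109 bins, or 71.6%, where 24.9% of all autosomal bins were. Called lower were 4, or 3.67%, against 22.5% of all autosomal bins, and 27 had no call. Without replicate 2, the bins called lower numbered 2, against 441 of 2109 over all autosomes. Above 0 on all 4 arrays were 84 bins, or 77.1% against 33.2% over all autosomes.

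**Figure D2:**
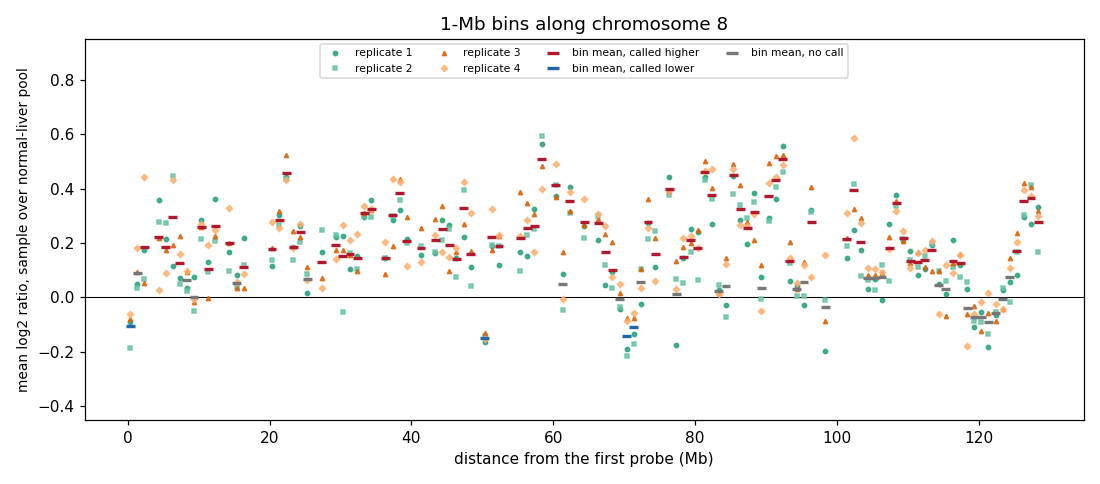
Mean log2 ratio (y) of 1-Mb bins of chromosome 8 against the distance from its first probe in Mb (x), with 1 small marker per array and a bar at the mean of 4 arrays, coloured by call. Of 109 bins, 78 were called higher and 4 lower, and bin means ranged from -0.15 to 0.51.

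The 6 highest and the 4 called-lower bins were inspected for what they hold. The highest by a narrow margin was chr8:61000001-62000000, whose 7 probes averaged 0.56, 0.59, 0.48 and 0.40. It holds part of Galntl6, a glycosyltransferase-family gene, and without its highest probe the bin mean was 0.31 in place of 0.51. The bin chr8:95000001-96000000 had 38 probes, of which 36 were above 0, and averaged 0.56, 0.46, 0.52 and 0.49. It contains the Ces1 carboxylesterases, and without its highest probe its mean was 0.47.

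The bin chr8:84000001-85000000, with Inpp4b, a phosphoinositide phosphatase, and Il15, a cytokine that sustains natural killer and memory T cells, averaged 0.44, 0.43, 0.50 and 0.46 over 29 probes. The bin chr8:25000001-26000000 averaged 0.44, 0.43, 0.52 and 0.43 over 39 probes, 37 of them above 0. It holds a row of Adam genes, whose products are membrane proteins of the metalloprotease-disintegrin family, and Ido1 and Ido2, which degrade tryptophan. Adam18 averaged 0.68 ± 0.09, Adam3 0.52 ± 0.14 and Adam32, which reaches into the next bin, 0.50 ± 0.07, and these 3 were called higher, as was Ido2 at 0.27 ± 0.12. Adam5 at 0.22 ± 0.06 and Ido1 at 0.23 ± 0.09 were not called.

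The bin chr8:88000001-89000000, with Phkb, was at 0.45 ± 0.05, and at 0.28 without the Phkb probe at 2.91. The bin chr8:94000001-95000000, with part of Fto, a nucleic acid demethylase gene tied to body weight, was at 0.43 ± 0.07, and at 0.32 without its highest probe. In all 6 bins the mean thus exceeded 0.25 without the farthest probe.

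The 4 bins called lower were of different kinds. The bin chr8:73000001-74000000 had 73 probes, 46 of them below 0, and averaged -0.19, -0.21, -0.07 and -0.08. Its mean without the lowest probe was -0.12. Its neighbour chr8:74000001-75000000 averaged -0.13, -0.17, -0.08 and -0.06 over 56 probes, of which 28 were below 0, and -0.07 without the B3gnt3 probe at -2.14. In both bins slide 1 was lower than slide 2 on every array.

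At the start of the profile, chr8:3000001-4000000 averaged -0.10 ± 0.06 over 43 probes. It includes Insr, the insulin receptor gene, which itself was at 0.08 and not called. The bin chr8:53000001-54000000 was at -0.15 ± 0.01 over 7 probes, but its median probe was at 0.36. A single probe at chr8:53355226-53355285, with a mean of -3.46, set its sign, and the mean without that probe was 0.40. This probe never reached well above background in the samples and always did in the pool, which bounds it at 2.33-fold or more below the pool. Near the distal end, chr8:124000001-125000000 averaged -0.18, -0.13, -0.06 and 0.02 and was not called.

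Divided into segments by penalised least squares, chromosome 8 came out as 1 segment over all 2810 probes on each of the 4 arrays, and on their mean. With the penalty multiplier at 5 in place of 10, replicate 4 still had 1 segment, replicates 1 and 2 had 3 and replicate 3 had 5. In those 3 replicates a short segment was set apart below the rest, at chr8:72530031-74447720 with a mean of -0.19 over 136 probes, at chr8:73119588-74237467 with -0.32 over 86 probes and at chr8:72229743-74434018 with -0.10 over 156 probes. Replicate 3 also had a distal segment of 71 probes from chr8:128901962 at 0.40. Segments carry no test.

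Of the 2810 probes, 2292 carry a gene name, for 1063 genes, of which 411 have 1 probe and 253 have at least 3. A gene was called at an adjusted p under 0.05 and a mean log2 ratio at least 0.25 from 0, tested with limma over all 20478 autosomal genes. Called higher than the pool were 317 genes, or 29.8%, against 16.1% of all autosomal genes. Called lower were 114, or 10.7%, against 19.2% of all autosomal genes, and 632 had no call. The median gene of chromosome 8 was at 0.11 and that of all autosomes at -0.01.

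Setting each array to the chromosome's own median in place of the autosomal one lowers every chromosome 8 gene by the shift itself. The surplus of higher genes was then gone, which is no separate finding. Then 138 genes were called higher, or 13%, against 14.7% of all autosomal genes taken relative to their own chromosomes, and 234 lower, or 22%, against 18%. Of the 253 genes with at least 3 probes, 73, or 28.9%, had every probe mean above 0, against 11.5% on the other autosomes. All probe means were below 0 in 10, or 3.95%, against 11.8%.

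The 10 highest genes with at least 3 probes, 1 per 1-Mb bin, lay between Cul4a, probed at chr8:13107116-13141328, and Ces1g, probed at chr8:95829500-95857571. Phkb headed them, with gene means of 0.96, 1.12, 1.21 and 1.24 (1.14 ± 0.13, limma's adjusted p = 5.39e-04). Its middle probe, printed above, was far from the other 2. Over probes well above background on all arrays, which leave the middle one out, Phkb was at 0.23 and was not called. Ces1g was at 0.79, 0.83, 0.84 and 0.86 (0.83 ± 0.03, adjusted p = 7.25e-04). Cldn23, a claudin of tight junctions, was at 0.43, 0.65, 0.80 and 0.87, and its 3 probe means lay between 0.50 and 0.88.

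Il15 was at 0.65, 0.84, 0.61 and 0.61. Adam18 was at 0.75, 0.76, 0.63 and 0.57 over 9 probes, which ranged from 0.05 to 1.81. Cul4a, the scaffold of a ubiquitin ligase, was at 0.55, 0.54, 0.79 and 0.60, and its 4 probes lay between 0.40 and 0.81. Sh3rf1, a ubiquitin ligase and scaffold of JNK signalling, was at 0.56, 0.60, 0.62 and 0.69.

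Nfix, a transcription factor, averaged 0.57 ± 0.09 and Tnks, the ADP-ribosyltransferase tankyrase, 0.57 ± 0.13. Irf2, an interferon regulatory factor, differed between arrays, at 0.86, 0.71, 0.80 and 0.07. Of its 3 probes, 1 did not reach well above background in the samples or the pool on any array. The Irf2 mean of 0.61 ± 0.36 passed the threshold on 4 arrays (adjusted p = 0.0149) but not without replicate 1, 2 or 3 (adjusted p = 0.0551, 0.0531 and 0.0542). In the other 9 of these genes every array was above 0.25. Relative to the chromosome's own median, all 10 were called higher, from Phkb at 0.97 to Tnks at 0.41. They were picked as the highest genes, so this is no further test of them.

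The 10 lowest genes with at least 3 probes were nearer to 0. Helt, a transcription factor gene of neural development, was at -0.60, -0.51, -0.39 and -1.02 (-0.63 ± 0.27, limma's adjusted p = 6.41e-03). In the samples, 2 of its 3 probes did not reach well above background on any array. E2f4, which represses cell cycle genes together with proteins of the retinoblastoma family, was at -0.48, -0.72, -0.57 and -0.34 (adjusted p = 4.23e-03). Its 3 probes lay between -0.59 and -0.42.

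Cbfa2t3, a transcriptional corepressor gene, was at -0.35, -0.31, -0.49 and -0.71. Its lowest probe, at -0.85 ± 0.56, did not reach well above background in the samples or the pool on any array. Mast1, a microtubule-associated kinase gene, was at -0.43, -0.32, -0.32 and -0.30 and Prosc, a pyridoxal phosphate-binding protein gene, at -0.31, -0.38, -0.29 and -0.34. Prosc had 1 probe at -0.94 and another at 0.41. The remaining 5 were Jph3 at -0.32 ± 0.25, Nup133 at -0.31 ± 0.15, Mcf2l and 1190005I06Rik at -0.28 ± 0.13 and -0.28 ± 0.12, and Carkd at -0.27 ± 0.10. In Jph3, Nup133 and Mcf2l, 1 of 3 probes did not reach well above background in the samples on any array.

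These low genes depended on the setting more than the high ones. With normexp background correction Helt was at -0.16, Cbfa2t3 at -0.08, Jph3 at -0.14, Nup133 at -0.15, Mcf2l at -0.11, 1190005I06Rik at -0.15 and Carkd at -0.21, and none of these 7 was called. Leaving out at least 1 replicate ended the call of Jph3, Nup133, Mcf2l, 1190005I06Rik and Carkd, and Jph3 without replicate 1 was at -0.21. Mast1 was at -0.22 and not called once the trend with probe density and GC content was removed. E2f4 and Prosc kept their calls under the 14 alternatives that left the size limit at 0.25. The chromosome's own median was above 0 on every array, so taking values relative to it moves each of these genes further down. That all 10 were called lower on that scale is therefore no further test of them.

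Genes were also grouped by known role. The counts of each list stand against 29.8% called higher and 10.7% lower over all chromosome 8 genes, and 16.1% and 19.2% over all autosomal genes. Relative to the chromosome's own median these shares are 13% and 22% on chromosome 8 and 14.7% and 18% over all autosomes. Of 8 measured genes of plasma proteins, 6 were called higher (75%) and none lower, with a list median of 0.39 against 0.11 for all chromosome 8 genes and -0.01 for all autosomal genes. Relative to the chromosome's own median 3 were called higher, F10, Proz and Hp, while Gas6, Fgl1 and F11 had no call. F7, F10, Proz and Gas6 are probed within chr8:13028965-13484860, inside 1 bin of 1 Mb that was called higher at 0.26. Their values are therefore not separate observations. F10 was at 1.22, 1.06, 1.06 and 1.07 (limma's adjusted p = 4.16e-04), a gene mean that rests on the first of its 2 probes. Proz, a cofactor in inhibiting activated factor X, was at 0.63, 0.55, 0.64 and 0.53. Hp, the haemoglobin-binding haptoglobin, was at 0.37, 0.41, 0.49 and 0.48 over its only probe.

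Fgl1, a fibrinogen-like liver protein, averaged 0.38 ± 0.16. Gas6, a ligand of the TAM receptor kinases, was at 0.35, 0.30, 0.08 and 0.88. Without replicate 4 it was at 0.24 and not called, nor was it without replicate 1 or 2. F7, the coagulation factor that starts the tissue factor pathway, at -0.09 ± 0.21, and Agt, the angiotensin precursor, at 0.02 ± 0.09, were not called. With normexp Hp was at 0.24 and 5 of the 8 were called.

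Of 23 genes of liver metabolism, 10 were called higher (43.5%), 3 lower and 10 not, with a list median of 0.18. Set to the chromosome's own median, the list had 6 higher and 5 lower. Tat was at 2.06, 2.17, 2.17 and 2.21 (2.15 ± 0.07, limma's adjusted p = 3.66e-05) on its 1 probe, the largest gene value of any list here. Phkb is described above. Hsd17b2, a steroid dehydrogenase, was at 0.84, 0.59, 0.59 and 0.80, and Fto was at 0.29, 0.64, 0.81 and 0.96. Aadat, which acts in lysine and tryptophan breakdown, was at 0.29, 0.67, 0.34 and 0.81.

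Of those not called, Lpl, the lipase that clears triglycerides from plasma, was at -0.43, -0.30, -0.08 and -0.14. Nat2, an arylamine acetyltransferase, averaged 0.23 ± 0.25 and Got2, the mitochondrial aspartate aminotransferase, 0.18 ± 0.14. The 3 called lower were Mt1 and Mt2, neighbouring metallothioneins that bind zinc and copper, and Gcdh, a dehydrogenase of lysine breakdown. They are named after their values were seen, at -0.50 ± 0.13, -0.28 ± 0.19 and -0.28 ± 0.10, with 1 probe each. Of the list, 1 gene was called lower without replicate 1 or without replicate 4.

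Of 14 carboxylesterase genes, 7 were called higher (50%), 7 not and none lower, with a list median of 0.28. With the chromosome's own median as 0, 5 were called higher and none lower. Every member had a mean above 0, the lowest at 0.01. Besides Ces1g these were Ces1d at 0.71, 0.63, 0.79 and 0.61, Ces1c at 0.78, 0.60, 0.35 and 0.72, Ces1f at 0.76, 0.53, 0.35 and 0.76, and Ces2g at 0.47, 0.72, 0.40 and 0.68. In both Ces1c and Ces1f replicate 3 was the low array. Of the 4 Ces1f probes, 1 did not reach well above background in the samples or the pool on any array. Ces2e and Ces4a were also called, though not relative to the chromosome's own median.

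Carboxylesterases hydrolyse ester bonds of drugs and lipids, and the Ces1 genes stand in a tandem row, probed from Ces1c to Ces1g at chr8:95642144-95857571, apart from the Ces2, Ces3 and Ces4 genes, probed from Ces2a to Ces4a at chr8:107264772-107670600. Of those not called, Ces2c was at 0.25 ± 0.12, Ces3a at 0.23 ± 0.09 and Ces3b at 0.20 ± 0.22, each on 1 probe. Within the Ces1 row, Ces1e at 0.11 was not called. Whether a probe of 1 copy also binds its near relatives was not tested. Without the 8 bins that hold carboxylesterase, Adam and Inpp4b genes and were called higher, the chromosome median was 0.15 over 2570 probes, an alternative chosen after the data were seen.

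Of 15 genes of TNF and NF-kB signalling, innate immunity and cell death, 6 were called higher (40%), 9 not and none lower, with a list median of 0.20. Against the chromosome's own median 5 were called higher and 3 lower, the latter Hmox1, Map1lc3b and Tradd. With normexp, in the deposited table and with mode centring 2 were called lower, and 1 was without replicate 2 or without replicate 4. Il15 and Irf2 are described above. Nod2, a sensor of bacterial cell wall fragments, was at 0.70, 0.48, 0.73 and 0.44, but its 2 probes were far apart, at -0.25 and 1.43. Tnfsf13b, the B cell survival factor BAFF, was at 0.70, 0.58, 0.57 and 0.47 on 1 probe. Nfat5, a transcription factor of the response to osmotic stress, ranged from 0.23 to 1.14.

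Hmox1, haem oxygenase, was widely spread, at -1.23, 0.19, -0.54 and -1.10, and had no call at -0.67 ± 0.65. Its 1 probe was dim in the samples on every array, and without replicate 2 it was at -0.96 and called lower. Map1lc3b, of autophagosomes, averaged -0.25 ± 0.18 without a call. A further 3 genes of the TNF and necroptosis pathway were added after their values were seen. Mlkl was at 0.13, 0.05, 0.31 and 0.30 (limma's adjusted p = 0.072), Tradd, an adaptor of the TNF receptor, at -0.10, -0.18, -0.15 and -0.25 (adjusted p = 0.0697), and Ikbkb, the kinase that releases NF-kB, at -0.12, -0.09, 0.09 and 0.22 (adjusted p = 0.80).

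Of 17 genes known as tumour suppressors, 9 were called higher (52.9%), 1 lower (5.88%) and 7 not, with a list median of 0.30. The list had 4 higher and 3 lower relative to the chromosome's own median. Sfrp1, a secreted antagonist of Wnt, was at 0.60, 0.46, 0.50 and 0.68. Hhip, a binding protein of hedgehog ligands, was at 0.50, 0.52, 0.44 and 0.75. Dlc1, a gene known to be lost in human liver cancer, was at 0.55, 0.44, 0.50 and 0.56 over 9 probes, all with means above 0.

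Tusc3, a subunit of the enzyme that attaches N-glycans, averaged 0.47 ± 0.20. Rbl2, a relative of the retinoblastoma protein, was split by slide, at 0.13 and 0.24 against 0.88 and 0.72. Neither of its 2 probes was well above background in the samples on any array, and without replicate 3 or 4 it was not called. Cbfa2t3, with its lowest probe near background as described above, was the 1 called lower. Ctcf, the insulator protein, at 0.35 ± 0.29, Mtus1, a microtubule-associated protein, at 0.22 ± 0.05, and Ing2, a chromatin reader, at -0.19 ± 0.25, had no call.

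Of 17 genes of growth control and oncogenes, 4 were called higher (23.5%), 3 lower (17.6%) and 10 not, with a list median of 0.10. Without replicate 1 the median was 0.21, and with the trend with probe density and GC content removed it was 0.19. Calls relative to the chromosome's own median were 2 higher and 5 lower. Cul4a and E2f4 are described above. Myst3, a histone acetyltransferase, was at 0.40, 0.37, 0.55 and 0.50. Maf, a transcription factor, was at -0.58, -1.01, -0.83 and -0.95 on 1 probe.

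Jak3, the kinase of cytokine receptors in lymphocytes, was at -0.72, -1.51, -0.91 and -0.45. Of its 2 probes, 1 was dim in the samples on every array and lay at least 1.57-fold below the pool, and the other averaged -0.40. Nrg1, a ligand of ERBB receptors, at 0.22 ± 0.06 over 6 probes, Whsc1l1, a histone methyltransferase, at 0.24 ± 0.15, and Prkaca, the catalytic subunit of protein kinase A, at 0.24 ± 0.15, were not called.

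Of 7 cadherins, the calcium-dependent adhesion proteins, Cdh11 alone was called higher (14.3%), at 0.43, 0.61, 0.13 and 0.41. It was not called without replicate 1 or 2. Cdh1, the E-cadherin of epithelia, was at -0.26, -0.19, -0.14 and -0.09 without a call. Relative to the chromosome's own median Cdh11 had no call, and Cdh1, Cdh8 and Cdh15 were called lower, Cdh1 at -0.33 (limma's adjusted p = 8.99e-03). Cdh1 and Cdh13 also stand among the tumour suppressors. Cdh3 at 0.22 ± 0.12 and Cdh8 at -0.18 ± 0.19 had no call. The list median was 0.02, and it turned to -0.01 with arrays centred on the mode and to -0.02 without replicate 2, and was 0.08 without replicate 4. The chemokine genes Ccl17, at 0.14 ± 0.14, and Cx3cl1, at -0.09 ± 0.05, had no call.

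**Figure D3:**
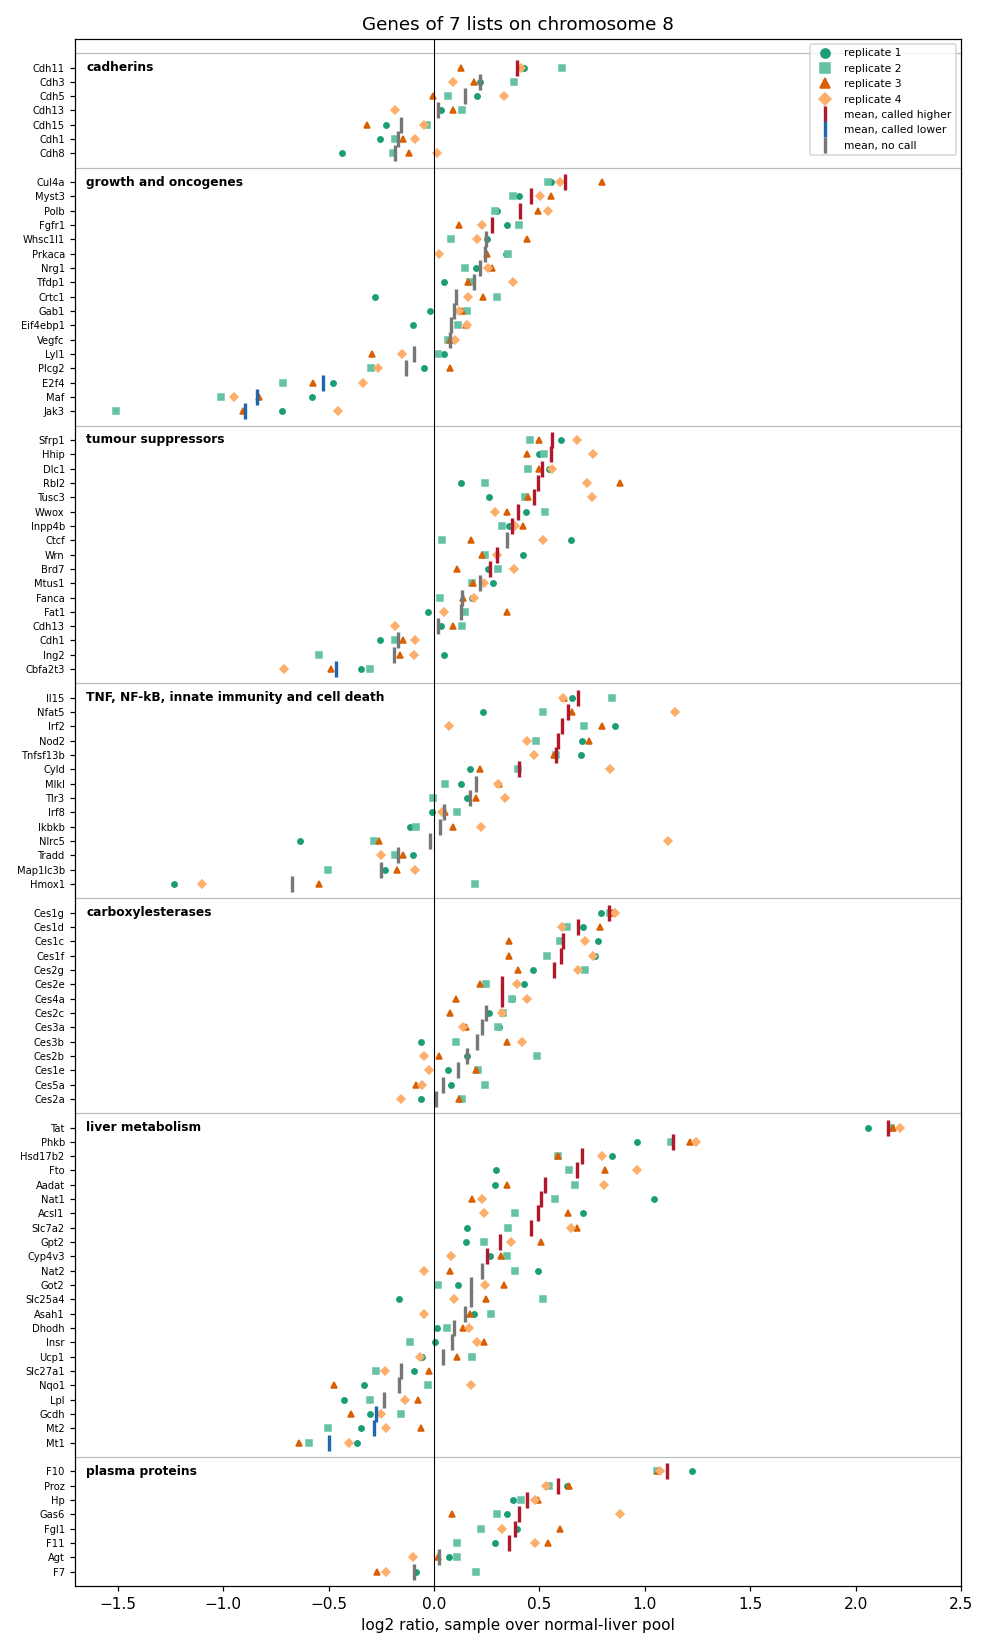
Log2 ratio of sample over pool (x) for the chromosome 8 genes of 7 lists (y, 1 gene not shown), 1 marker per array and a vertical bar at the mean of 4 arrays, coloured by call. Of the 14 carboxylesterases 7 were called higher, Tat stood highest at 2.15, and Jak3, at -0.90, was lowest.

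The lists and their genes were chosen with results of these data known, so the counts describe the genes and are no independent evidence.

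The 8 genes with at least 10 probes give the best view of how probes of 1 gene vary. Pard3, a cell polarity scaffold, was at 0.35, 0.41, 0.46 and 0.44 (0.41 ± 0.05, limma's adjusted p = 3.89e-03), and 22 of its 23 probes had means above 0. Spock3, an extracellular proteoglycan, was at 0.50, 0.44, 0.40 and 0.43, with 16 of 17 probes above 0. Inpp4b was at 0.35, 0.32, 0.42 and 0.38 over 23 probes, of which 15 were above 0, and its probes ranged from -1.04 to 2.42.

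Nrp1, a receptor for semaphorins and VEGF, was at 0.23, 0.39, 0.33 and 0.36 and Vat1l, an oxidoreductase-like protein, at 0.21, 0.22, 0.29 and 0.35, each with 10 of 13 probes above 0. These 5 were called higher, though Nrp1 and Vat1l, at 0.22 and 0.17, were not with normexp, and Vat1l was not without replicate 3 or 4. Spock3 and Pard3 were also called relative to the chromosome's own median, at 0.28 and 0.25, and Inpp4b, Nrp1 and Vat1l were not, at 0.21, 0.17 and 0.11. Ankrd11, a chromatin regulator, at 0.12 ± 0.04 over 14 probes and Stox2, a winged-helix protein, at -0.05 ± 0.09 over 11 were not called.

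The name ENSMUST00000127664 covers 41 probes spread over chr8:122627735-126675150. It was at -0.21, -0.22, -0.26 and -0.09 (-0.19 ± 0.07, limma's adjusted p = 0.0532), with 24 probes below 0. Relative to the chromosome's own median it was called lower, at -0.35 (adjusted p = 7.89e-03). Its lowest probe was at -1.22 and its highest at 0.47.

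**Figure D4:**
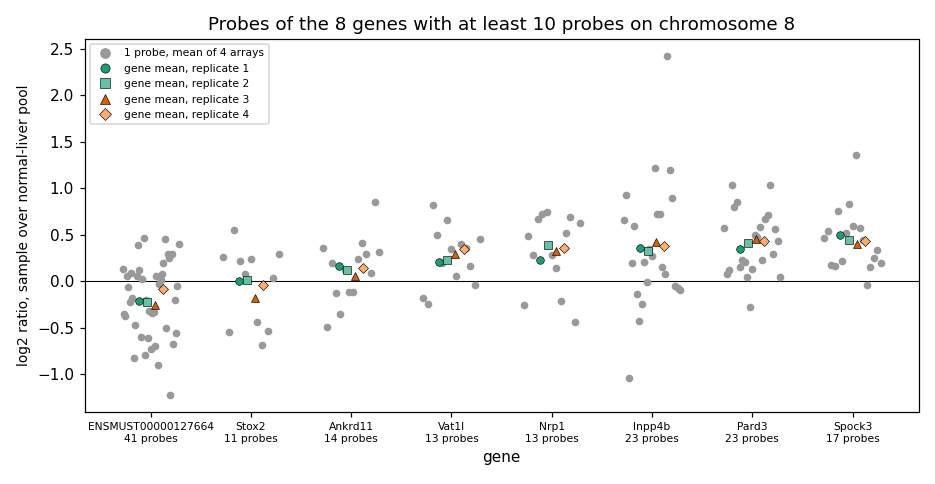
Log2 ratio of sample over pool (y) for the 8 chromosome 8 genes with at least 10 probes (x), with 1 grey point per probe, the mean of 4 arrays, and 1 coloured marker per array for the gene mean. Gene means ranged from -0.19 to 0.44 while single probes ran from -1.22 to 2.42.

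Some properties of the probes moved with the ratio both on chromosome 8 and on the other 18 autosomes pooled. Within each class tried, chromosome 8 lay above the pooled median of those others. The other autosomes were not compared singly by class. Where at most 15 probes lay within 0.5 Mb on either side, the median was 0.23 ± 0.01 on chromosome 8 and 0.06 ± 0.02 elsewhere. Where at least 58 did, it was 0.03 ± 0.04 and -0.11 ± 0.02. Over 8 classes of probe density, chromosome 8 minus the other autosomes was between 0.14 and 0.21.

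By GC content of the probe, chromosome 8 was at 0.23 against 0.04 below 34%, at 0.20 against 0.02 in the middle class and at 0.07 against -0.08 above 38%. Probes without a gene name were at 0.20 ± 0.01 on chromosome 8 and -0.03 ± 0.01 elsewhere, and named ones at 0.15 ± 0.01 and 0.00. Across the 2810 probes the mean ratio correlated with GC content at -0.19 and with the log2 of probe density at -0.15. These are values across probes of the same arrays, with no test.

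**Figure D5:**
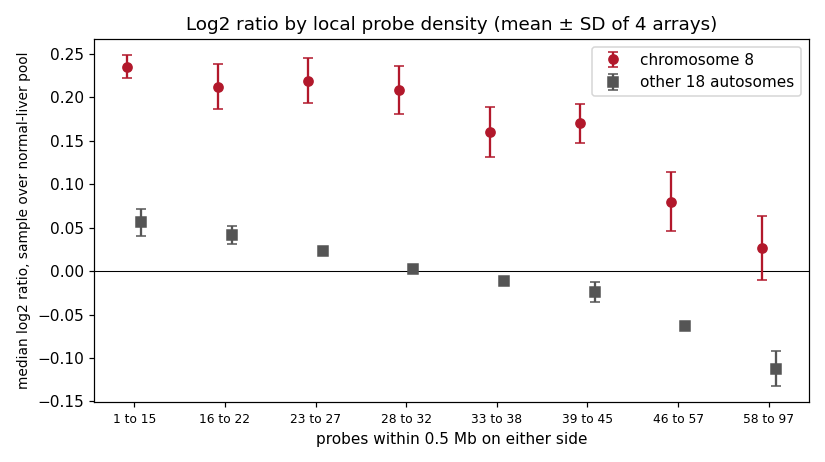
Median log2 ratio of sample over pool (y) in 8 classes of local probe density (x) for chromosome 8 and for the other 18 autosomes, as mean ± SD of 4 arrays. Chromosome 8 ran from 0.23 to 0.03 from the sparsest to the densest class and stayed 0.14 to 0.21 above the others pooled.

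Signal strength set a limit for some members. Well above background in both channels on all 4 arrays were 2313 probes, or 82.3%, against 82.4% on the other autosomes. On no array well above background were 169 probes in the samples and 58 in the pool, 51 of these in both. Only 2 probes were dim in the pool on every array but bright in the samples on every array. These lay in Adam18, at least 3.35-fold above the pool, and in Slc6a2, a noradrenaline transporter gene, at least 2.21-fold above. Dim in the samples and bright in the pool were 47, of which 14 allow a bound and 33 do not. For such a bound, the dim channel takes the array's weakest signal that still counts as above background, or the probe's own where higher. These bounds are open to dye bias. For the counts of dim probes, no share on the other autosomes is given. Whether chromosome 8 holds more or fewer of them than other autosomes was not tested.

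Of the probes, 21 matched letter for letter, on either strand, within 1 of 1442 promoter windows of chromosome 8 genes in RefSeq (GRCm38.p6). Their median log2 ratio was 0.00, against 0.16 for the chromosome. They were not matched for GC content or probe density, nor set against promoter probes of other autosomes. Chromosome 8 probes above 38% GC were at 0.07 and those in the densest class at 0.03. Whether promoters differ from the rest of the chromosome was not tested. No mm9 gene models were at hand, so exons and introns are not given.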

How the data were processed

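Genomic DNA of 4 samples was measured on 2-colour Agilent arrays of 62976 spots, 3924 of them controls. The deposited intensity values come from Feature Extraction 10.10.1.1 and were detrended and dye-normalised by the scanner software, per the file headers. The deposited log10 ratio served only as a check and matched the ratios taken here. A deposited table of log2 values, whose scale and direction were read from its agreement with the scanner ratios of the same arrays and whose normalisation no source here states, was an alternative. Sample DNA lit 84.3% to 89.9% of spots well above background, and pool DNA 94.4% to 97.7%. The number of arrays limits the precision.

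The log2 of processed Cy5 over Cy3 was taken, 93 to 108 outlier spots per array and all control spots were left out, repeat spots were averaged per probe, and the autosomal median of each array was set to 0. Gene and bin values are means of probes. Tests used limma 3.58.1 (lmFit and eBayes against 0) in R 4.3.3 with Benjamini-Hochberg adjustment over all autosomal genes, bins or chromosomes. The comparison of chromosomes was adjusted over 18 differences. Descriptions used Python 3.11.15. Of the 1063 gene names, 760 are RefSeq symbols, 94 synonyms and 209 neither. Named genes are the 10 highest and 10 lowest called genes having at least 3 probes, the same sign on every array and a 1-Mb bin of their own, every gene with at least 10 probes, and up to 5 called and 3 other genes per list by absolute mean. The values of 1 list gene, which stays in its list's counts, are not reported here. The members and lists were chosen with earlier results of these data known. The fits were tested on simulated data with independent noise on each array. Probe effects shared by all arrays were not simulated, so calls under such effects were not checked. Alternatives were normexp (offset 50), the deposited table, a filter on dim probes, other centrings, slide as a block, each replicate left out, kept outlier spots and defensins, removal of the trend with probe density and GC content, and other bins and limits.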

Additional observations from a re-analysis of the deposited data

Results flagged for a closer look

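Of 90 values with 4 arrays each, namely the chromosome median, the 10-Mb windows and the named genes, 2 had 1 array set apart from the other 3 by Dixon's criterion, which chance gives in about 1 of 20 groups. In chr8:50000001-60000000, replicate 1 was the low array at 0.17, against 0.27, 0.27 and 0.28. F10 had its highest value in replicate 1, at 1.22, against 1.06, 1.06 and 1.07, and every array was far above 0.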

How the results depend on the processing

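The chromosome 8 median kept its direction and call under all 14 alternatives, from 0.12 with normexp to 0.18 in the deposited table, as did its place above 17 other autosomes. Without the bins with carboxylesterase, Adam and Inpp4b genes it was 0.15, and over unnamed probes 0.20, both chosen after the data were seen. Bins called higher numbered 46 when 2 Mb wide, or 73% against 23.9% of all autosomal bins. Bins called lower numbered 1 with normexp or the dim filter, 7 with mode centring and 2 with the trend removed or 2-Mb bins. They numbered 0 at a limit of 0.15 and 2 to 5 without 1 replicate. Over all autosomes, bins called lower numbered 319 of 2109 with normexp, 412 of 2013 with the dim filter and 619 with mode centring. There they were 525 with the trend removed, 218 of 1185 at 2 Mb, 272 at a limit of 0.15, and 441 to 451 without 1 replicate. At a gene limit of 0.5, 98 genes were called higher and 37 lower, or 9.22% and 3.48% against 4.62% and 7.02% of autosomal genes. Relative to the chromosome's own median they were 40 and 90, for which no autosomal share is given. Whether that lean to lower genes is particular to chromosome 8 was therefore not tested at this limit. At the gene limit used elsewhere, all autosomal genes leaned the same way relative to their own chromosomes. There 14.7% were higher and 18% lower, against 13% and 22% on chromosome 8. Over genes with at least 3 probes, 89 were higher than the pool and 14 lower. These were 35.2% and 5.53%, against 13.1% and 13.2% over all autosomes. Without 1 replicate, 240 to 256 genes were higher, or 22.6% to 24.1% against 12.1% to 13.1% of autosomal genes. Lower were 79 to 96, or 7.43% to 9.03% against 14.6% to 16.1%.

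The slide difference missed the threshold with normexp (0.0159, adjusted p = 0.287), in the deposited table (0.014, adjusted p = 0.23) and with mode centring (0.044, adjusted p = 0.236), and ran from 0.0141 to 0.0204 without 1 replicate. Segments averaged 3 per array at a penalty multiplier of 5. Of 50 called named genes, 34 kept their call under every alternative that measured them and 16 lost it at least once. None was reversed. Of 25 named genes without a call, 13 gained one under at least 1 alternative, among them Ces2c without replicate 3 (0.30), Ctcf without replicate 2 (0.45), Prkaca without replicate 4 (0.31) and Hmox1 without replicate 2 (-0.96). With normexp 10 of the 50 lost their call and 22 moved by over 1.5 times. The causes were not tested. No paired analysis was possible because there is 1 group.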
